A study of Homo sapiens with 14 samples.

Results

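The nuclear genes that encode subunits of the mitochondrial respiratory chain and of ATP synthase were followed in the human cell line NT2, which derives from an embryonal carcinoma and differentiates under inducing agents. Members were the protein-coding genes whose symbols begin with NDUFA, NDUFB, NDUFC, NDUFS, NDUFV, UQCR, COX4 to COX8 or ATP5, together with CYC1 and SDHA to SDHD, without the NDUFAF assembly factors. This gave 89 of the 25952 genes in the count table. They comprise 37 genes of complex I, 4 of complex II, 9 of complex III, 19 of complex IV and 20 of complex V, among them the inhibitor ATP5IF1 and the read-through locus ATP5MF-PTCD1. Of the 89, 84 passed the filter on low counts, and COX6A2, COX7B2, COX8C, ATP5MGL and ATP5MF-PTCD1 did not. The mitochondrially encoded subunits were not analysed here.

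RNA was sequenced from 14 libraries in 7 groups of 2. RA-5, RA-10 and RA-21 were treated with all-trans retinoic acid (RA) at 10 µM for 5, 10 and 21 days, as the route to neurons. BMP-5, BMP-10 and BMP-21 were treated with bone morphogenetic protein 2 (BMP2) for the same times, as the route to muscle. The labels name an earlier and a later BMP2 concentration without tying either to a library. NT2-0 is untreated cells at day 0. RA was dissolved in DMSO. DMSO cultures are named as the negative control, but no library carries that label, and none of a later day is untreated among those analysed here. Treatment and time in culture therefore cannot be told apart. Whether a pair of libraries came from separate cultures is not labelled, and the p-values then reflect a spread that may be technical.

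Complexes I to IV pass electrons from NADH and succinate to oxygen, and complexes I, III and IV pump protons across the inner mitochondrial membrane while they do so. Complex V lets the protons back through a rotating ring of c subunits, and the rotation drives ATP synthesis by its alpha and beta subunits. Each complex other than complex II has a core that carries the catalysis and a set of small accessory subunits. The core of complexes I, III and IV includes subunits made inside the mitochondrion. Pluripotent cells are known for a large share of glycolysis in their energy supply, and neurons and muscle cells for a high demand on oxidative phosphorylation.

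Total counts per library ran from 45773278 to 75754396. The BMP-10 libraries stood apart from each other, with a correlation over genes of 0.918. Replicate 1 was closest to BMP-5 replicate 2 (r = 0.981) and replicate 2 to BMP-21 replicate 2 (r = 0.966). Levels are in CPM, counts per 1e6 reads with library sizes scaled by TMM factors. The summed CPM of 6 pluripotency markers was 31.6 to 32.4 in RA-21 and 20.1 to 27.6 in BMP-21, against 5803.9 to 6543.4 in NT2-0. The 6 neuronal markers in the table summed to 557 to 590 CPM in RA-21 and 210 to 238 CPM in BMP-21, against 85.9 to 117 CPM in NT2-0, with 3 called higher in each. In BMP-21 the 5 smooth muscle markers summed to 338 to 485 CPM and the 7 cardiac markers to 205 to 246 CPM, with TNNI3 at 0. They summed to 35.3 to 88.8 CPM and 31.7 to 73.3 CPM in NT2-0. Of the cardiac markers, 1 was called higher and 3 lower in BMP-21. The 7 skeletal muscle markers summed to 57.8 to 99.1 CPM in BMP-21, with MYOD1 and CKM at 0, against 11.3 to 16.0 CPM in NT2-0. Of the 5 skeletal markers tested, 1 was called higher and 2 lower in BMP-21. The 6 pericyte markers summed to 2188 to 2632.6 CPM in RA-21 and 1720.7 to 1761 CPM in BMP-21, against 199 to 241 CPM in NT2-0. The part of these marker shifts in the results below was not tested, and in bulk RNA fewer cells of a type and less RNA per cell cannot be told apart.

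After 21 days of BMP2 most subunit genes that were called were lower, and after 21 days of RA calls went in both directions. In BMP-21, 4 of the 84 tested members were called higher than in NT2-0 and 32 lower. A gene was called when its edgeR quasi-likelihood adjusted p was under 0.05. Over all 19142 tested genes, 25% were called higher and 22.1% lower in that comparison, 47.1% in all. In RA-21, 13 members were called higher and 18 lower, or 17 and 14 with library size in place of TMM, where 23.4% of all genes were called higher and 21.1% lower, 44.6% in all, so the lower share of the members in RA-21, 21.4%, was near that of all genes. The median log2 fold change of the members was -0.43 in BMP-21 and -0.07 in RA-21, against 0.04 and 0.10 over all genes. Summed over the 89 members, CPM was 6810.1 and 6829.4 in the RA-21 libraries and 5911.8 and 5627.8 in the BMP-21 libraries, against 9078.5 and 9395.9 in the NT2-0 libraries. All 4 libraries of day 21 lay below both NT2-0 libraries in this sum. ATP5F1A and ATP5F1B alone made up 830.6 and 869.6 CPM of it in RA-21 and 989.5 and 981.8 CPM in BMP-21, against 2400.2 and 2419.5 CPM in NT2-0. The other 87 members summed to 5979.5 and 5959.8 CPM in RA-21 and 4922.2 and 4646.1 CPM in BMP-21, against 6678.3 and 6976.4 CPM in NT2-0. With library size alone, the RA-21 median was 0.08 over the members and 0.26 over all genes, so its sign turned. Without RA-21 replicate 1 the RA-21 calls fell to 19, with 5 higher and 14 lower.

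**Figure D1:**
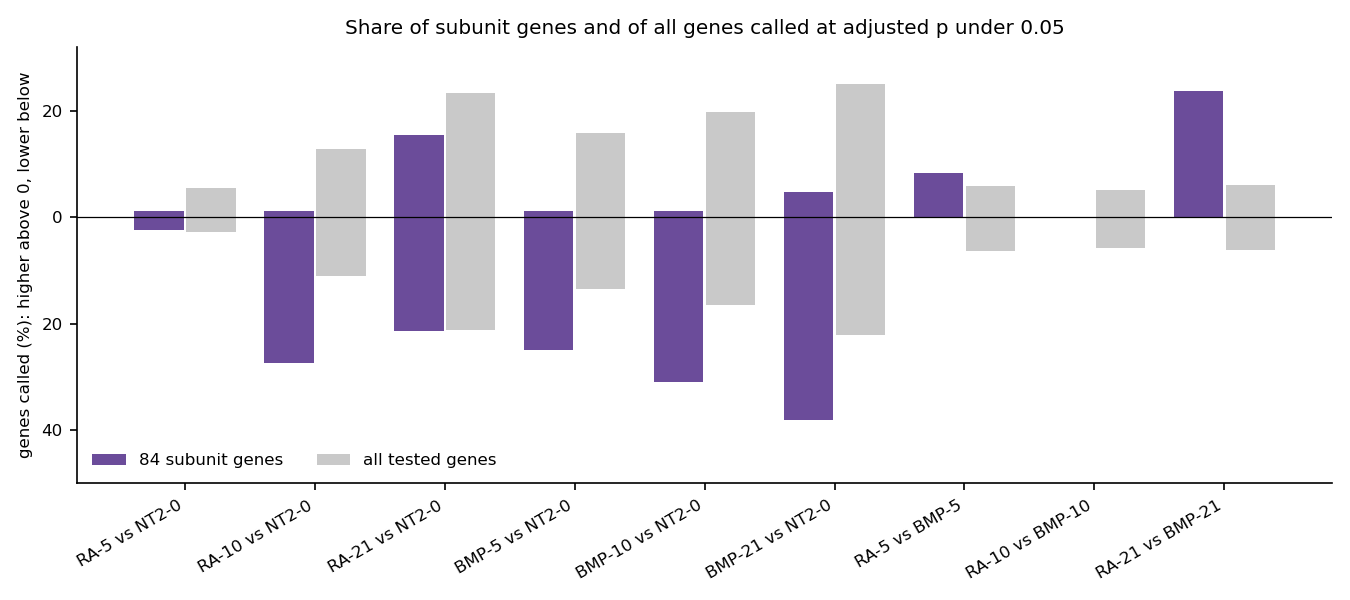
Share of the 84 tested subunit genes (purple) and of all 19142 tested genes (grey) called at adjusted p under 0.05 in each comparison, in percent, with higher calls above 0 and lower calls below. In BMP-21 vs NT2-0, 38.1% of the subunit genes were lower, and in RA-21 vs BMP-21, 23.8% were higher and 0 lower.

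In RA-10, BMP-5 and BMP-10 more members were called lower than higher against NT2-0, while RA-5 had few calls. In RA-5, 1 member was higher than in NT2-0 and 2 were lower, 1.19% and 2.38% of the 84 tested. Of all genes, 8.31% were called in RA-5, 5.59% as higher and 2.72% as lower. The share of members called lower in RA-5 was thus near that of all genes. In RA-10, 1 was higher and 23 lower, or 1 and 10 with library size alone, where 24% of all genes were called, 12.9% as higher and 11.1% as lower. BMP-5 had 1 higher and 21 lower, where 29.2% of all genes were called, 15.9% as higher and 13.4% as lower. BMP-10 had 1 higher and 26 lower, where 36.3% were called, 19.8% as higher and 16.4% as lower. The member that was higher in each of these 4 comparisons was ATP5F1E. The members' median log2 fold change was -0.06 in RA-5, -0.35 in RA-10, -0.26 in BMP-5 and -0.27 in BMP-10, against 0.00, 0.06, 0.00 and 0.05 over all genes. These counts rested on few libraries. The RA-10 calls numbered 13 and 6 without NT2-0 replicate 1 or 2, and 11 and 5 without RA-10 replicate 1 or 2. The BMP-5 calls numbered 10 and 8 without NT2-0 replicate 1 or 2 and 8 without BMP-5 replicate 2. The BMP-10 calls numbered 15 and 14 without NT2-0 replicate 1 or 2 and 17 without BMP-10 replicate 2, and 0 where the fit held only the 4 libraries compared. The RA-5 calls numbered 0 without NT2-0 replicate 1 or 2 or RA-5 replicate 1, 1 without RA-5 replicate 2 or either RA-21 library, and 6 without either BMP-10 library.

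Over the 6 treated groups, 35 of the 84 tested members (41.7%) were never called, 35 (41.7%) were called lower only, 12 (14.3%) higher only and 2 (2.38%) in both directions. Of all 19142 tested genes, 35.3% were never called, 29.7% were called lower only, 33.8% higher only and 1.24% in both directions. The last are NDUFB1 and COX6C, called lower in BMP-10 and higher in RA-21. SDHD and ATP5PD were lower in all 6 comparisons with NT2-0, and ATP5F1E was higher in all 6. All 6 share the NT2-0 libraries. A further 9 members, ATP5F1A, ATP5F1B, ATP5MC3, COX5A, NDUFAB1, UQCR11, UQCRC1, UQCRFS1 and UQCRH, were lower in 5 of the 6. Of these 9, only ATP5F1B kept all 5 calls without any 1 library. The BMP-10 call of UQCR11 was lost without any 1 of 13 libraries. Those of UQCRC1 in BMP-5 and BMP-10 were lost without any 1 of 11 and 12. The share of all genes lower in as many comparisons was not counted. Without NT2-0 replicate 1, SDHD and ATP5F1E lost their RA-5 calls, at -0.82 and 0.90 on the log2 scale, and without NT2-0 replicate 2 they lost them at -0.68 and 1.42. The RA-5 call of ATP5PD (-0.63) was lost without either library of NT2-0, RA-5 or RA-21. The RA-5 call of ATP5F1E was lost without any 1 of 9 libraries, with the coding length trend taken out (1.05) and with replicate number added to the fit. Without NT2-0 replicate 1, ATP5F1E also lost its RA-10, BMP-5 and BMP-10 calls. Without NT2-0 replicate 2, ATP5PD also lost its RA-10, RA-21, BMP-10 and BMP-21 calls. The RA-21 and BMP-21 calls of ATP5F1E and the BMP-5 call of ATP5PD held without any 1 library.

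**Figure D2:**
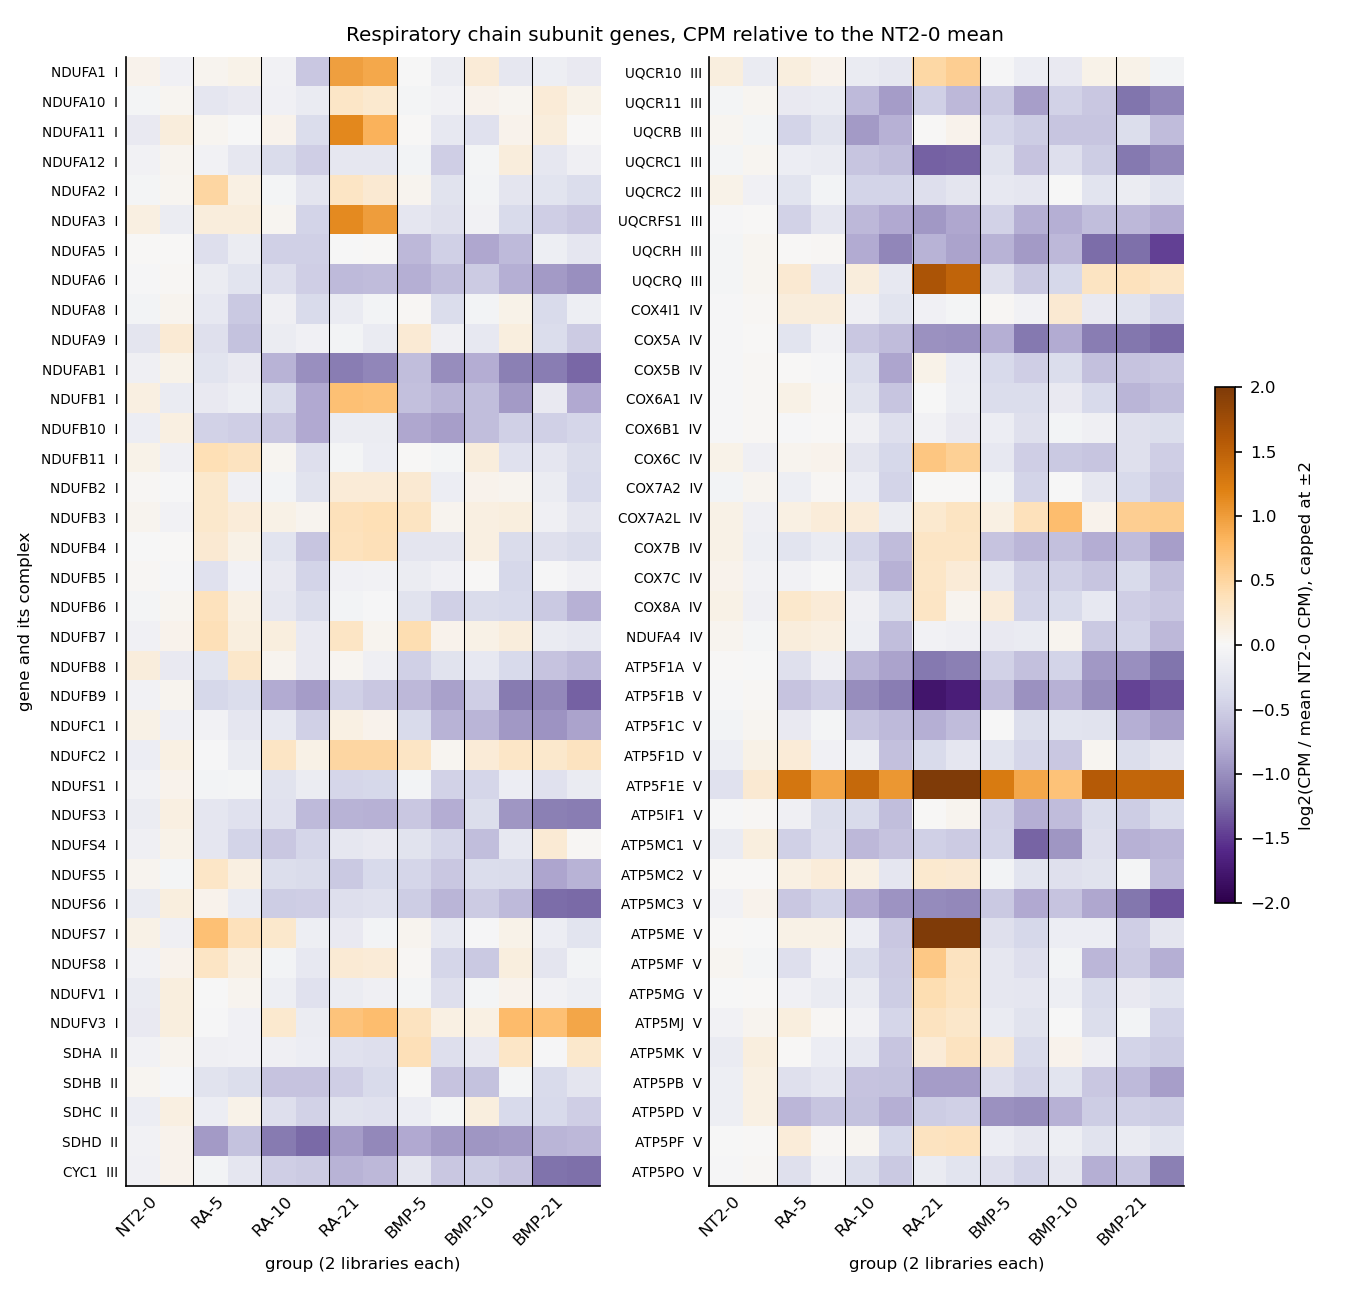
Log2 ratio of each library's CPM to the mean CPM of NT2-0 (colour, capped at ±2) for 76 tested subunit genes with a mean of at least 1 CPM in NT2-0, with 2 libraries per group in columns. ATP5F1E stands above 0 in every treated library, and ATP5ME, UQCRQ and NDUFA3 are high in RA-21, while ATP5F1B, UQCRC1, COX5A and NDUFAB1 are low in both day 21 groups.

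The start regions of 4 members are shown, 2 of the genes that rose most in RA-21 (ATP5F1E and ATP5ME) and 2 that fell in both day 21 groups (SDHD and UQCRC1). Each runs 5′ to 3′ on the strand of the gene, from 250 bases before its start to 50 after, as RefSeq gives it on GRCh38.p14. Capitals mark matches on either strand to GCATGCGC, the core of the site of the transcription factor NRF1, to CGGAAG, the core bound by ETS factors such as GABPA, and to AAGATGGCG, the first 9 letters of a site of YY1. CGGAAG and AAGATGGCG can overlap where they meet.
ATP5F1E, chr20:59032286-59032585, minus strand: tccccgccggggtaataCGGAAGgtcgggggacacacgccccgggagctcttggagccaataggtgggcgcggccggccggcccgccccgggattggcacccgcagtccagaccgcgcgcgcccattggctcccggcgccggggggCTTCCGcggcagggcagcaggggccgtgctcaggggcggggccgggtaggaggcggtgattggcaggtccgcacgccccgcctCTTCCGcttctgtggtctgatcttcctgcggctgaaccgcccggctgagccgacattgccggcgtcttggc
ATP5ME, chr4:674227-674526, minus strand: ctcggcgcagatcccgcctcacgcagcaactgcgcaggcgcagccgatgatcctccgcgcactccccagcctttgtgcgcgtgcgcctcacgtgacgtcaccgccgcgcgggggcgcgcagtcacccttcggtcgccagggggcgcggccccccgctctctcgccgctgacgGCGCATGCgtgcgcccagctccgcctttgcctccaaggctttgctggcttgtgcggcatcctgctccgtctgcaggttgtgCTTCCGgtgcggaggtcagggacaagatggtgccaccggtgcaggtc
SDHD, chr11:112086623-112086922, plus strand: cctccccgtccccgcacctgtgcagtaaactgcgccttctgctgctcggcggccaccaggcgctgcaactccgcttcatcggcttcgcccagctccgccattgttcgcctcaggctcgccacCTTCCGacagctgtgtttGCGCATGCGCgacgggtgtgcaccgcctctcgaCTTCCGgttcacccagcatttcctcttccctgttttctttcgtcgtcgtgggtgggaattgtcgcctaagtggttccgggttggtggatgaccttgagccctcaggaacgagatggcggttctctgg
UQCRC1, chr3:48609597-48609896, minus strand: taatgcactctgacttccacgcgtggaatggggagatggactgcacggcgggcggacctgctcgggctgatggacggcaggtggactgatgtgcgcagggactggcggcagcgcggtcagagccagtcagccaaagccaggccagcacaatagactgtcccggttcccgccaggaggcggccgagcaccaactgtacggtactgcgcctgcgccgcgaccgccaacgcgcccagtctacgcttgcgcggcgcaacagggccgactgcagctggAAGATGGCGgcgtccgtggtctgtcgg
ATP5F1E holds CGGAAG alone of these motifs, ATP5ME and SDHD hold GCATGCGC and CGGAAG, and UQCRC1 holds AAGATGGCG. Promoters were matched by symbol for 70 of the 89 members. Of these, 13 held GCATGCGC (18.6%), against 4.39% of the 14120 promoters of protein-coding genes. CGGAAG was in 28 (40%), against 27%, and AAGATGGCG in 8 (11.4%), against 2.98%. TATAAA was in 7 (10%), against 8.3%. The median GC content was 61.1% in the member promoters and 63.7% over all. A match is a string of letters, not a measured binding site.

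Complex V held the largest called fall among the members in RA-21, that of ATP5F1B, beside a rise of ATP5F1E. ATP5F1B encodes the catalytic beta subunit. It measured 476 and 503 CPM in RA-21 and 596 and 637 CPM in BMP-21, against 1608.2 and 1643.9 CPM in NT2-0. The groups did not overlap. Its log2 fold change was -1.73 ± 0.16 (SE) in RA-21 (adjusted p = 8.8e-05) and -1.40 ± 0.16 in BMP-21 (adjusted p = 0.00015). It was lower at day 10 too, with -1.06 ± 0.16 in RA-10 (adjusted p = 0.0017), and stood at 1087.4 and 1153.7 CPM in RA-5, where it was not called (adjusted p = 0.061).

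ATP5F1A, the alpha subunit that alternates with beta in the catalytic head, fell in parallel. It stood at 354 and 366 CPM in RA-21 and at 393 and 345 CPM in BMP-21, against 792 and 776 CPM in NT2-0. The log2 fold changes were -1.12 ± 0.17 (adjusted p = 0.0008) in RA-21 and -1.09 ± 0.17 (adjusted p = 0.0008) in BMP-21. ATP5F1C, the gamma subunit of the central stalk, fell by 0.71 on the log2 scale in RA-21 and by 0.82 in BMP-21. ATP5PB, a subunit of the peripheral stalk that holds the head still, fell by 0.90 and by 0.77. ATP5PD, another peripheral stalk subunit, measured 41.0 and 41.8 CPM in RA-21 and 41.9 and 41.1 CPM in BMP-21, against 53.6 and 63.0 CPM in NT2-0. Its calls at day 21 (-0.50 ± 0.14 and -0.49 ± 0.14) were lost without NT2-0 replicate 2 and without either library of the treated group, and it was lowest in BMP-5, at 29.6 and 28.9 CPM (-1 ± 0.15, adjusted p = 0.0012). Head, central stalk and peripheral stalk thus each held members that were lower in both day 21 groups.

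The epsilon subunit moved the other way. ATP5F1E, a small subunit of the central stalk, measured 214 and 240 CPM in RA-21 and 79.5 and 80.3 CPM in BMP-21, against 23.8 and 34.1 CPM in NT2-0. It was thus 7.82-fold higher in RA-21 (log2 fold change 2.97 ± 0.31, adjusted p = 0.00014) and 2.76-fold higher in BMP-21 (1.46 ± 0.30, adjusted p = 0.0028). Its libraries lay between 47.1 and 86.4 CPM at days 5 and 10 of both treatments, all above NT2-0. Of its exonic bases, 23.2% overlap TUBB1, which measured at most 0.941 CPM in any library. Between RA-21 and BMP-21 the log2 fold change was 1.5 ± 0.30 (adjusted p = 0.013), and this call was lost without RA-21 replicate 1 or 2 (1.57 and 1.40), without BMP-21 replicate 1 or 2 (1.5 and 1.49), and with the trend against coding length taken out (0.85).

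ATP5ME, subunit e of the membrane part of ATP synthase, was highest in the RA-21 libraries. It measured 28.3 and 22.1 CPM in RA-21 and 3.94 and 4.68 CPM in BMP-21, against 5.54 and 5.51 CPM in NT2-0. Its log2 fold change was 2.19 ± 0.25 in RA-21 (adjusted p = 0.00018) and -0.36 ± 0.24 in BMP-21 (adjusted p = 0.24). Between the treatments it was 5.85-fold higher in RA-21 (2.55 ± 0.25, adjusted p = 0.00081). Of its exonic bases, 61.6% overlap MYL5, so their reads cannot be told apart where the counting did not use strand. MYL5 measured 7.23 and 7.73 CPM in RA-21 and 7.74 and 7.37 CPM in BMP-21, against 2.01 and 2.50 CPM in NT2-0. The same limit holds for the MYL5 counts, and the part of shared reads in the ATP5ME values was not tested.

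The genes ATP5MC1, ATP5MC2 and ATP5MC3 encode the same mature c subunit of the rotor ring. ATP5MC3 stood at 191 and 188 CPM in RA-21 and at 173 and 150 CPM in BMP-21, against 371 and 406 CPM in NT2-0. Its log2 fold change was -1.03 ± 0.15 in RA-21 (adjusted p = 0.00056) and -1.27 ± 0.15 in BMP-21 (adjusted p = 0.0002). ATP5MC2 was not called, with 190 and 189 CPM in RA-21 and 156 and 103 CPM in BMP-21, against 161 in both NT2-0 libraries. ATP5MC1 was not called either, at -0.50 ± 0.27 in RA-21 and -0.72 ± 0.28 in BMP-21. Of the 18 tested members of complex V, 2 were higher and 6 lower in RA-21 (11.1% and 33.3%, against 23.4% and 21.1% of all genes). In BMP-21, 1 was higher and 8 lower (5.56% and 44.4%, against 25% and 22.1% of all genes). The inhibitor ATP5IF1, which blocks ATP hydrolysis by the enzyme, was called in neither, at 0.03 ± 0.16 and -0.43 ± 0.16.

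**Figure D3:**
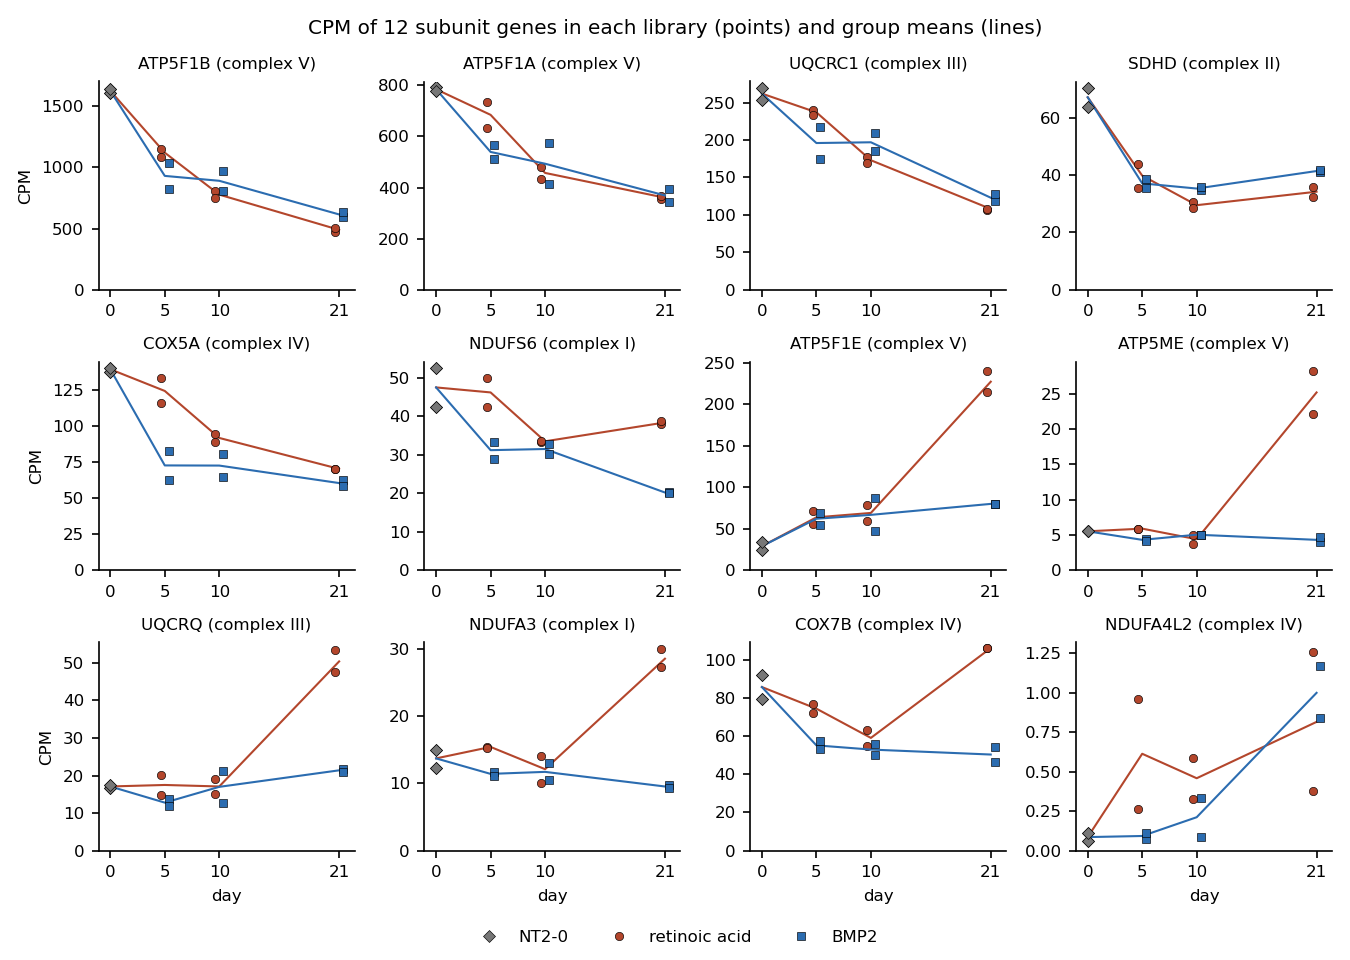
CPM of 12 subunit genes by day in every library (points; grey diamonds NT2-0, red circles RA, blue squares BMP2), with lines through the group means and a separate linear axis from 0 for each gene. Treated libraries of ATP5F1B, ATP5F1A, UQCRC1, SDHD and COX5A all lie below NT2-0, while ATP5F1E, ATP5ME, UQCRQ and NDUFA3 are highest in the 2 RA-21 libraries.

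At day 21 complex III had the largest share of members called against NT2-0. Of its 9 members, 2 were higher and 5 lower in RA-21 (22.2% and 55.6%, against 23.4% and 21.1% of all genes). The share called higher was thus near that of all genes. In BMP-21, 0 were higher and 6 lower (0% and 66.7%, against 25% and 22.1% of all genes). UQCRC1, a core structural subunit, measured 107 and 108 CPM in RA-21 and 118 and 128 CPM in BMP-21, against 254 and 270 CPM in NT2-0. It fell by a log2 fold change of -1.28 ± 0.14 in RA-21 (adjusted p = 0.00016) and -1.09 ± 0.14 in BMP-21 (adjusted p = 0.00026). UQCRC2, its partner in the core, was called in neither, at -0.28 ± 0.14 and -0.20 ± 0.14. Both electron-carrying nuclear subunits fell. UQCRFS1, the Rieske iron-sulfur protein, had log2 fold changes of -0.87 ± 0.14 in RA-21 and -0.73 ± 0.14 in BMP-21. CYC1, which is cytochrome c1, measured 58.9 and 60.9 CPM in RA-21 and 42.7 and 42.4 CPM in BMP-21, against 92.5 and 103 CPM in NT2-0.

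UQCRH, the hinge protein between cytochrome c1 and cytochrome c, measured 302 and 277 CPM in RA-21 and 215 and 181 CPM in BMP-21, against 485 and 513 CPM in NT2-0. It fell by 1.33 on the log2 scale in BMP-21 and by 0.78 in RA-21, and the RA-21 call was lost without RA-21 replicate 2 (-0.74). UQCRQ, a small subunit at the membrane face, went the other way in RA-21. It measured 53.4 and 47.5 CPM in RA-21 and 21.8 and 21 CPM in BMP-21, against 16.7 and 17.5 CPM in NT2-0. That was 2.95-fold higher in RA-21 (log2 fold change 1.56 ± 0.26, adjusted p = 0.0011), while BMP-21 was not called (0.33 ± 0.26, adjusted p = 0.32). Of its exonic bases, 20.8% overlap GDF9, which was under 1 CPM in every library. UQCRB, a small subunit near the quinone site, differed in its time course. It measured 56.3 and 63.6 CPM in RA-10 and 106 and 111 CPM in RA-21, against 109 and 103 CPM in NT2-0. The call was lower in RA-10 (-0.82 ± 0.14, adjusted p = 0.0035) and absent in RA-21 (0.03 ± 0.14, adjusted p = 0.87). Whether RA-21 differed from RA-10 was not tested. UQCR11, another small subunit, fell in BMP-21 (-1.12 ± 0.18, adjusted p = 0.00069), at 14.8 and 16.1 CPM, against 32.6 and 34.7 CPM in NT2-0. UQCR10, another small subunit, was called higher in RA-21 at 0.53 ± 0.16, a call lost without NT2-0 replicate 2 (0.38), without RA-21 replicate 1 (0.56) or 2 (0.46), without the filter on low counts (0.53) and with the coding length trend taken out (0.07).

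Complex I was the largest group. Of its 37 members, 7 were higher and 5 lower in RA-21 (18.9% and 13.5%, against 23.4% and 21.1% of all genes). In BMP-21, 1 was higher and 11 were lower (2.7% and 29.7%, against 25% and 22.1% of all genes). Among the core subunits that carry electrons, NDUFS1, the largest core subunit, and NDUFV1, the NADH-binding one, were called in neither day 21 comparison. NDUFS1 had -0.42 ± 0.16 and -0.22 ± 0.16, and NDUFV1 had -0.12 ± 0.15 and -0.09 ± 0.15.

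NDUFAB1, the mitochondrial acyl carrier protein, had the largest called fall of complex I in RA-21. It stood at 77.3 and 81.2 CPM in RA-21 and at 77.3 and 70.3 CPM in BMP-21, against 157 and 179 CPM in NT2-0. Its log2 fold change was -1.08 ± 0.17 (adjusted p = 0.00094) in RA-21 and -1.19 ± 0.17 (adjusted p = 0.00051) in BMP-21. NDUFS6, an accessory subunit, separated the treatments. It stood at 38.1 and 38.7 CPM in RA-21 and at 20.4 and 20 CPM in BMP-21, against 42.5 and 52.5 CPM in NT2-0. Its fall was called in BMP-21 (-1.23 ± 0.16, adjusted p = 0.00027) and not in RA-21 (-0.31 ± 0.16, adjusted p = 0.13). NDUFS3, a core subunit, fell in BMP-21 (-1.11 ± 0.21). It was called in RA-21 at -0.73 ± 0.21, a call lost without NT2-0 replicate 2 (-0.58), without RA-21 replicate 1 (-0.75) or 2 (-0.74), and with library size alone (-0.57).

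Other accessory subunits of complex I fell at day 21. NDUFA6 measured 37.2 and 37.6 CPM in RA-21 and 31.3 and 29.5 CPM in BMP-21, against 58.0 and 59.7 CPM in NT2-0. It was lower in both, by 0.65 and by 0.95 on the log2 scale (adjusted p = 0.0039 and 0.00048), and without any 1 library both calls held. NDUFB9 measured 37.1 and 35.4 CPM in RA-21 and 25.3 and 21.3 CPM in BMP-21, against 49.5 and 54.0 CPM in NT2-0. Its fall was called in BMP-21 (-1.15 ± 0.21, adjusted p = 0.0014) and not in RA-21 (-0.51 ± 0.20, adjusted p = 0.064). NDUFS5 measured 131 and 144 CPM in RA-21 and 107 and 115 CPM in BMP-21, against 197 and 184 CPM in NT2-0. The fall in BMP-21 was -0.78 ± 0.12 (adjusted p = 0.00077), and that in RA-21, -0.47 ± 0.12, was lost without NT2-0 replicate 1 or RA-21 replicate 1.

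Some small accessory subunits of complex I were higher in RA-21. NDUFA3 measured 29.9 and 27.2 CPM in RA-21 and 9.71 and 9.34 CPM in BMP-21, against 15 and 12.3 CPM in NT2-0. The log2 fold change of NDUFA3 was 1.06 ± 0.22 in RA-21 (adjusted p = 0.0035) and -0.52 ± 0.22 in BMP-21 (adjusted p = 0.072). NDUFA1 measured 99.9 and 95.3 CPM in RA-21 and 46.7 and 44.7 CPM in BMP-21, against 53.4 and 47.9 CPM in NT2-0. Its rise in RA-21 was 0.95 ± 0.19 (adjusted p = 0.0029). It shares 44.5% of its exonic bases with RNF113A, which was between 7.36 and 19.8 CPM. NDUFA11 was called higher in RA-21 at 1.00 ± 0.27, a call lost without NT2-0 replicate 1 (0.84) or RA-21 replicate 1 (0.82). NDUFV3 was higher in both, at 0.72 ± 0.23 and 0.83 ± 0.23. Its RA-21 call was lost without NT2-0 replicate 1 (0.56), RA-21 replicate 1 (0.74) or RA-21 replicate 2 (0.67) and with the length trend taken out (0.41), and its BMP-21 call without NT2-0 replicate 1 (0.68) or BMP-21 replicate 2 (0.74).

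In complex II, 1 of the 4 genes was called in each day 21 comparison (25%), against 44.6% of all genes in RA-21 and 47.1% in BMP-21. SDHD, a membrane anchor that helps to form the quinone site, measured 35.9 and 32.5 CPM in RA-21 and 41.1 and 41.7 CPM in BMP-21, against 63.7 and 70.5 CPM in NT2-0. Every treated library lay between 28.5 and 44.0 CPM, below both NT2-0 libraries. The log2 fold change was -0.97 ± 0.15 in RA-21 (adjusted p = 0.00068) and -0.70 ± 0.15 in BMP-21 (adjusted p = 0.0034), and -1.19 ± 0.15 in RA-10. The flavoprotein SDHA measured 44.8 and 43.6 CPM in RA-21 and 53.7 and 65.4 CPM in BMP-21, against 52.0 and 56.9 CPM in NT2-0, and the groups overlapped for BMP-21. SDHA was called in none of the 6 comparisons with NT2-0, nor were the iron-sulfur subunit SDHB and the other anchor SDHC.

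In complex IV, 2 of the 16 tested members were higher and 1 lower in RA-21 (12.5% and 6.25%, against 23.4% and 21.1% of all genes). In BMP-21, 2 were higher and 6 lower (12.5% and 37.5%, against 25% and 22.1% of all genes). COX5A, a small nuclear subunit at the matrix side, measured 70.3 and 69.8 CPM in RA-21 and 62.2 and 58.5 CPM in BMP-21, against 137 and 140 CPM in NT2-0. The fall gave log2 fold changes of -0.99 ± 0.17 (adjusted p = 0.0012) in RA-21 and -1.20 ± 0.17 (adjusted p = 0.00039) in BMP-21. COX4I1, the widespread form of subunit 4, was called in neither, at -0.07 ± 0.15 and -0.35 ± 0.15. COX7B measured 106 in both RA-21 libraries and 54.4 and 46.2 CPM in BMP-21, against 92.1 and 79.2 CPM in NT2-0. It fell in BMP-21 (-0.77 ± 0.15, adjusted p = 0.0021) and was not called in RA-21 (0.30 ± 0.15, adjusted p = 0.11). COX6C was called higher in RA-21 at 0.60 ± 0.15, a call lost without NT2-0 replicate 2 (0.51) or RA-21 replicate 1 (0.54) and with the length trend taken out (0.19).

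Several subunits of complex IV exist in a widespread and a tissue-restricted form, and the heart and skeletal muscle forms stayed near 0 counts in the BMP2 series. COX6A2, the muscle form of subunit 6A, had 12 counts in BMP-10 replicate 1 and 4 over both NT2-0 libraries, and 0 in the remaining treated libraries. COX7A1, the muscle form of subunit 7A, had 3 to 17 counts per library, 17 over both libraries in each of RA-21 and BMP-21 and 13 in NT2-0. COX4I2, the lung form of subunit 4, had 16 counts in BMP-5 replicate 2, 12 in BMP-10 replicate 1, 2 over the RA-10 libraries and 0 in the others. COX8C had 0 to 15 and COX7B2 0 to 4 counts per library, and COX6B2, a testis form, had 2 to 38. If single counts were independent, a count of 0 would allow up to 3 counts, between 0.0404 and 0.0671 CPM by library. Low counts were mostly even, so this limit may be too low, and it covers counting error only. The widespread partner COX6A1 measured 27.9 and 26.0 CPM in RA-21 and 17.1 and 18.1 CPM in BMP-21, against 27.7 and 28.5 CPM in NT2-0, and fell in BMP-21 (-0.67 ± 0.16, adjusted p = 0.0067).

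NDUFA4L2, a relative of NDUFA4 that is known for its induction by low oxygen, was the exception among the restricted forms. Its counts were 84 and 28 in RA-21 and 57 and 40 in BMP-21, against 3 and 8 in NT2-0. The libraries of the groups did not overlap. As log2 fold changes these were 3.19 ± 0.97 (adjusted p = 0.023) and 3.49 ± 0.98 (adjusted p = 0.015). The calls were lost without NT2-0 replicate 1 (2.85 in RA-21, 3.15 in BMP-21) or 2 (3.70 and 4), and without RA-21 replicate 1 (2.07) or BMP-21 replicate 1 (3.23). Per 100 counts of NDUFA4, NDUFA4L2 had 0.515 and 0.158 in RA-21 and 0.625 and 0.525 in BMP-21, against 0.023 and 0.0449 in NT2-0. This ratio, of counts not scaled by length, was higher in each of the 4 day 21 libraries than in both NT2-0 libraries.

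The members that rose in RA-21 were the short ones. All 13 members called higher in RA-21 had a coding length under 450 nucleotides, where 49 of the 84 tested members lie, and 5 of those 49 were called lower. Of the 35 members of 450 nucleotides or more, 0 were higher and 13 were lower. The boundary was chosen after the values were seen. Among the other genes tested, 25.5% of 979 short ones and 24.8% of 15015 longer ones were called higher in RA-21, and 15.4% and 22.9% were called lower. The short members called higher, 26.5%, were near that share of the other short genes. Over the 84 members the RA-21 log2 fold change had a Spearman rank correlation of -0.60 with coding length, against -0.04 over the 11845 other genes in the same range of lengths. Members lie mostly at the short end of that range, so the 2 correlations are not over like lengths. The RA-21 median of other genes also fell, from 0.38 under 300 nucleotides to 0.06 at 600 to 900. That of the members fell from 0.30 to -0.71. In BMP-21 the correlation over the members was -0.14. These correlations are across genes, which are not independent replicates and share the same 4 libraries.

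With each library's trend of log2 CPM against coding length taken out over all genes, 7 members were called higher and 25 lower in RA-21. That fit called 8654 of the 19142 tested genes in either direction, against 8529 in the main fit. Some calls held without that trend, among them ATP5F1E at 2.45, ATP5ME at 1.75, UQCRQ at 1.17 and NDUFA3 at 0.68. Other genes of under 300 nucleotides had a median log2 fold change of 0.38 in RA-21 and -0.05 in BMP-21, and the 23 members of that size 0.30 and -0.36. Among the 67 tested members that share under 20% of their exonic bases with another gene, 9 were higher and 17 lower in RA-21. In BMP-21, 3 of them were higher and 28 lower. Over all genes, whatever their overlap, 23.4% were called higher and 21.1% lower in RA-21, and 25% and 22.1% in BMP-21.

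**Figure D4:**
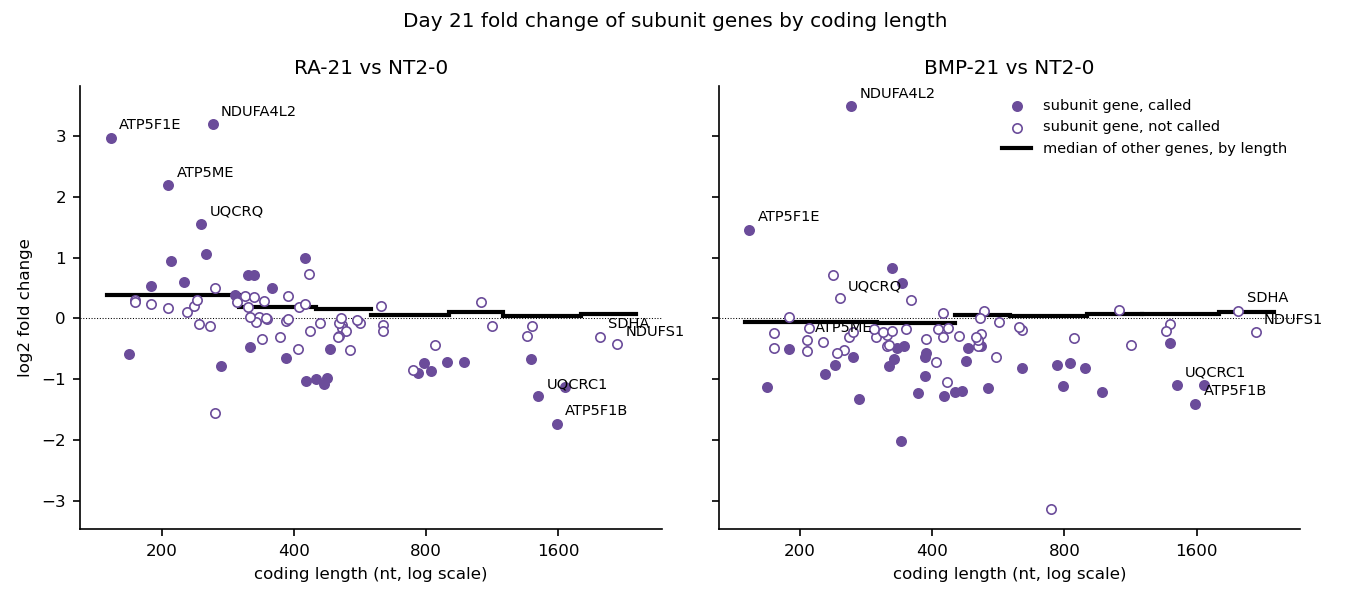
Log2 fold change of the 84 tested subunit genes at day 21 against coding length in nucleotides (log axis), for RA-21 (left) and BMP-21 (right), both against NT2-0. Filled points were called, open points were not, and black bars are medians of the other genes in each length range. In RA-21 all 13 members called higher are shorter than 450 nucleotides.

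At day 21 the treatments differed in the level of several members. In RA-21, 20 members were higher than in BMP-21 and 0 lower, where 5.99% of all genes were called higher and 6.07% lower, 12.1% in all. An unadjusted p under 0.05 was met by 39 members, and the share of all genes at that cut was not counted. The members' median log2 fold change was 0.35, against 0.02 over all genes. Of the 20, 8 belonged to complex I, 3 to complex III, 4 to complex IV and 5 to complex V. All but CYC1, 19 in number, were shorter than 450 nucleotides. Of the 49 tested members under that length, 38.8% were called higher and 0 lower. The 979 other genes under that length were shifted the same way, with 10.6% called higher and 2.96% lower. Their median log2 fold change was 0.30, against 0.55 for the short members. ATP5ME (2.55 ± 0.25), NDUFA3 (1.58 ± 0.22, 3-fold) and COX7B (1.07 ± 0.15, 2.10-fold) held under every alternative tried. The other 17 calls each ended without at least 1 library. NDUFC1, an accessory subunit of complex I, measured 22.7 and 22.0 CPM in RA-21, against 10.7 and 11.6 CPM in BMP-21. Its log2 fold change of 1.01 ± 0.20 (adjusted p = 0.013) lost its call without any 1 of these 4 libraries and with the length trend taken out (0.52). ATP5MF, subunit f of the membrane part of ATP synthase, measured 49.0 and 39.7 CPM in RA-21, against 21.9 and 18.6 CPM in BMP-21. The libraries of the groups did not overlap, and its log2 fold change was 1.13 ± 0.22 (adjusted p = 0.013), a call lost without either RA-21 library or BMP-21 replicate 2 and with the length trend taken out (0.71). COX6C, a small subunit of complex IV, measured 79.4 and 74.3 CPM in RA-21, against 41.0 and 36.1 CPM in BMP-21. The number of members called was 3 and 4 without RA-21 replicate 1 or 2, 10 and 4 without BMP-21 replicate 1 or 2, 12 without either NT2-0 library, 13 without RA-5 replicate 2 and 31 without either BMP-10 library. It was 7 with the coding length trend taken out, where the members' median was 0.10, and 39 with library size alone.

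At day 5, 7 members were higher in RA-5 than in BMP-5 and 0 lower, where 12.2% of all genes were called, 5.97% as higher and 6.25% as lower. The members' median log2 fold change was 0.27, against 0.00 over all genes. COX5A measured 116 and 133 CPM in RA-5, against 82.5 and 62.5 CPM in BMP-5, and UQCRH measured 499 and 509 CPM in RA-5, against 302 and 265 CPM in BMP-5. Neither gene's libraries overlapped. Each of the 7 calls was lost without some library, and the number called was 0 without BMP-5 replicate 2, 2 without BMP-5 replicate 1, 2 and 1 without RA-5 replicate 1 or 2, 3 without either RA-21 library and 4 without any of the NT2-0, RA-10 or BMP-21 libraries. At day 10, 0 members were called with edgeR between RA-10 and BMP-10, where 10.8% of all genes were called, 5.11% as higher and 5.73% as lower. An unadjusted p under 0.05 was met by 5 of the 84 tested members, and the share of all genes at that cut was not counted. DESeq2 called 2 members lower, and library size alone gave 2 higher. Leaving out BMP-10 replicate 1 or 2 gave 2 and 1 lower.

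**Figure D5:**
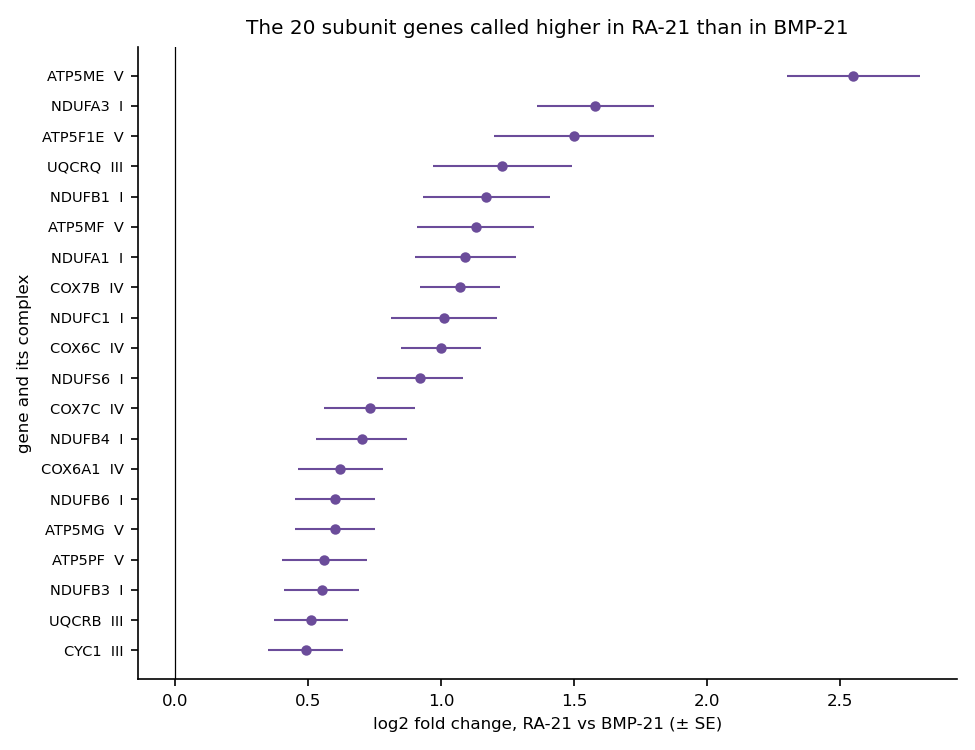
Log2 fold change of RA-21 over BMP-21 with its SE (points and bars) for the 20 subunit genes called, with the complex beside each name. ATP5ME is highest at 2.55, and 17 of the 20 calls were lost when some 1 library was left out.

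In each of 4 lists of genes that build, regulate or feed the chain, more members were called lower than higher at day 21. Over all genes, 23.4% were called higher and 21.1% lower in RA-21, and 25% and 22.1% in BMP-21. Among 56 assembly factors, 9 were higher and 16 lower in RA-21, and 4 were higher and 27 lower in BMP-21. COA7, an assembly factor of complex IV, had a mean of 30.6 CPM in RA-21 and 36.5 CPM in BMP-21, against 129 CPM in NT2-0, with log2 fold changes of -2.07 ± 0.21 and -1.82 ± 0.21. NDUFAF4, an assembly factor of complex I, had -1.62 ± 0.20 and -1.65 ± 0.20. PET100, a short assembly factor of complex IV, was called higher in RA-21 at 2.27 ± 0.68 from a mean of 2.16 CPM, against 0.449 CPM in NT2-0. That call was lost without NT2-0 replicate 2 (1.64) or RA-21 replicate 1 (2.14) or 2 (2.37).

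Of 14 regulators of mitochondrial biogenesis, 1 was higher and 9 lower in RA-21, and 0 were higher and 9 lower in BMP-21. PPARGC1B, a coactivator of nuclear genes for mitochondrial proteins, had a mean of 3.62 CPM in RA-21 and 3.50 CPM in BMP-21, against 34.3 CPM in NT2-0, with log2 fold changes of -3.24 ± 0.48 and -3.29 ± 0.48. TFB1M, which methylates mitochondrial ribosomal RNA, had -1.34 ± 0.27 and -2.04 ± 0.28. ESRRG, an orphan nuclear receptor, was called higher in RA-21 at 2.52 ± 0.79, a call lost without NT2-0 replicate 1 (2.63) or 2 (2.42) or RA-21 replicate 1 (2.45) or 2 (2.56).

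Of 14 enzymes of the tricarboxylic acid cycle, 2 were higher and 9 lower in RA-21, and 1 was higher and 8 lower in BMP-21. MDH2, the mitochondrial malate dehydrogenase, had -1.08 ± 0.15 and -0.70 ± 0.15. IDH2, the NADP-dependent isocitrate dehydrogenase, was higher in BMP-21 at 1.12 ± 0.21 and in RA-21 at 0.77 ± 0.20, where the call was lost without NT2-0 replicate 2 (0.54) or RA-21 replicate 1 (0.79) or 2 (0.72). Among 11 genes of cytochrome c and coenzyme Q synthesis, 2 were higher and 5 lower in RA-21, and 0 were higher and 6 lower in BMP-21. PDSS1, which starts the coenzyme Q side chain, had -2.27 ± 0.31 and -1.97 ± 0.31, and COQ2, which attaches it to the ring, had -2.17 ± 0.27 and -1.41 ± 0.26.

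Some members could not be measured well. NDUFV2 had 0 to 54, NDUFA7 3 to 53 and NDUFA13 14 to 85 counts per library, and their exons overlap other genes by 28.4%, 33.5% and 21%. NDUFA7 was called lower in BMP-21 (-2.01), a call that ended without any 1 of 11 libraries, and without BMP-21 replicate 1 the value was -1.25. The table names a pseudogene for 31 of the 89 members, and reads could be split between such copies. ATP5MF-PTCD1 had 0 to 3 counts per library and ATP5MGL 0 to 6. Levels were not compared between genes per length, because the deposited RPKM values had been divided by the whole gene span, introns included, for 75 of the 89 members.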

How the data were processed

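RNA sequencing of 14 NT2 libraries was analysed from the deposited tables. Raw counts per gene (25952 Ensembl identifiers) were deposited by the authors. Tools named in the submitters' processing notes are STAR, featureCounts and DESeq2, and the build is hg19. The annotation and strand setting are not given in the sources used here. Between 66.0% and 73.5% of the counts from 1 to 19 were even. A second table deposited by the authors holds RPKM values. For 87.2% of 14052 genes with at least 1000 counts, their implied length equalled the whole gene span within 1%, so RPKM was not tested, and the counts too may include introns. Symbols came from a list of gene names (25146 genes) or GENCODE v29 (126), and 680 identifiers had none.

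Groups came from the sample titles. Tests used edgeR 4.0.16 (R 4.3.3) with TMM scaling, the filterByExpr filter at 10 counts, a mean per group over all 14 libraries and quasi-likelihood F tests with Benjamini-Hochberg adjustment over 19142 genes. Residual degrees of freedom were 7, prior ones 3.08, and the common biological coefficient of variation was 0.368. The SE is the log2 fold change divided by the square root of F. With 2 libraries against 2, a single gene tested by permutation alone could not pass the threshold. The scripts were tested on simulated data. Named were a core set, members with a paralog, the 2 largest called rises and falls per complex and the 2 largest called changes per other list at day 21, and read-through loci. Others (ATP5PD, ATP5PB, ATP5F1C, NDUFA1, NDUFA6, NDUFB9, NDUFS5, NDUFC1, NDUFB1, ATP5MF, UQCRC2, UQCRB, ATP5IF1, SDHC, NDUFV2, NDUFA13, ATP5MGL and the members listed as lower in 5 comparisons) were named after their values were seen. The members and lists were chosen with earlier results of these data known. Coding length is that of the principal transcript in GENCODE v29, and sequences and coordinates are RefSeq's on GRCh38.p14. The YY1 motif was shortened to 9 letters after the data were seen.

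Alternatives were RLE factors, library size alone, no filter on low counts, DESeq2 1.42.0, a replicate block, only the 4 libraries compared, each library left out in turn, and no BMP-10 libraries. Taking out each library's trend of log2 CPM against coding length was added after the data were seen. Python 3.11.15 with matplotlib 3.10.9, pandas 2.3.3 and NumPy 2.4.6 made the tables and figures. Values of 1 member are not reported here, and it is left out of the heatmap but kept in the counts.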

Additional observations from a re-analysis of the deposited data

Results flagged for a closer look

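Of the 45 members named by rule, 12 differed in the direct test of RA against BMP2 at the same day (edgeR quasi-likelihood test, adjusted p under 0.05). Over all genes, 12.1% were called at day 21 and 12.2% at day 5. Some of the 45 were named for a large called change at day 21 in the same libraries. The count of 12 is therefore no share of the members at large. At day 21 the log2 fold change of RA-21 over BMP-21 was 2.55 for ATP5ME, 1.58 for NDUFA3, 1.5 for ATP5F1E, 1.23 for UQCRQ, 1.07 for COX7B, 1.00 for COX6C, 0.92 for NDUFS6, 0.62 for COX6A1 and 0.49 for CYC1. For each of the 9, both RA-21 libraries lay above both BMP-21 libraries. The same libraries gave the calls, so this adds no separate support. At day 5 the log2 fold change of RA-5 over BMP-5 was 0.83 for UQCRH, 0.78 for COX5A, 0.60 for NDUFAB1 and 0.57 for NDUFS6. For these 4 genes too, both RA-5 libraries lay above both BMP-5 libraries, and again this adds no separate support.

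The calls of ATP5ME, NDUFA3 and COX7B held without any 1 library. COX6C was lost without RA-21 replicate 1 (0.93). NDUFS6 at day 21 was lost without RA-21 replicate 1 (0.92) or 2 (0.89) or BMP-21 replicate 2 (0.89). UQCRQ was lost without RA-21 replicate 1 (1.13) or 2 (1.30) or BMP-21 replicate 1 (1.27) or 2 (1.19). ATP5F1E was lost without RA-21 replicate 1 (1.57) or 2 (1.40) or BMP-21 replicate 1 (1.5) or 2 (1.49). COX6A1 and CYC1 were each lost without any of 10 libraries, at 0.55 to 0.65 and 0.45 to 0.50 over all libraries left out. At day 5, NDUFAB1 and NDUFS6 were each lost without any of 12 libraries, at 0.42 to 0.79 and 0.45 to 0.68. With the coding length trend taken out, the day 21 calls of UQCRQ (0.79), ATP5F1E (0.85), COX6A1 (0.29) and CYC1 (0.45) and the day 5 calls of NDUFAB1 (0.49) and NDUFS6 (0.43) were lost.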

How the results depend on the processing

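Of 196 alternative counts of members called, 137 were within 1.5 times the reported one. RLE factors moved none of the 9 counts by more. Library size alone moved the median of all genes to 0.28 in RA-10, 0.26 in RA-21, 0.23 in RA-10 vs BMP-10 and 0.24 in RA-21 vs BMP-21, with members at -0.13, 0.08, 0.15 and 0.58. It gave 11 calls in RA-10 (24 reported), 39 in RA-21 vs BMP-21 (20) and 2 in RA-10 vs BMP-10 (0). No filter on low counts gave 13 in RA-21 vs BMP-21 and 3 in RA-5 vs BMP-5 (7). DESeq2 gave 7 in RA-5 (3), 12 in RA-5 vs BMP-5 and 2 in RA-10 vs BMP-10. The libraries compared alone gave 5 in RA-5, 0 in BMP-10 (27), 2 in RA-5 vs BMP-5 and 31 in RA-21 vs BMP-21. Without both BMP-10 libraries RA-5 had 5. With the coding length trend taken out, RA-5 had 5, RA-5 vs BMP-5 had 4 and RA-21 vs BMP-21 had 7.

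Same-numbered libraries did not deviate together (correlations -0.34 to 0.15), so the replicate block was an alternative only; it gave 4 calls in RA-5 vs BMP-5 and kept the other counts within 1.5 times. It ended 7 calls of named genes, among them that of ATP5F1E in RA-5 (1.15). Numbers are those of the titles; the RA-21 descriptions carry other numbers, so the check is uncertain there.

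Leaving out 1 library at a time gave 0 to 6 calls in RA-5, 5 to 32 in RA-10, 19 to 36 in RA-21, 8 to 28 in BMP-5, 14 to 28 in BMP-10, 24 to 44 in BMP-21, 0 to 7 in RA-5 vs BMP-5, 0 to 2 in RA-10 vs BMP-10 and 3 to 31 in RA-21 vs BMP-21. The lone library of a group was then assumed to vary like the other groups.

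Of 130 called values of named genes, 60 kept their call under every alternative, 70 lost it under at least 1, and 0 reversed. Depth limits the restricted complex IV forms and NDUFV2, NDUFA7 and NDUFA13, which had few counts.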

Other observations

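Because NDUFA4L2 is known for its induction by low oxygen, a list of 10 other hypoxia response genes was read beside it. In RA-21, 1 was higher and 3 were lower, and in BMP-21, 4 were higher and 2 lower. Over all genes, 23.4% were called higher and 21.1% lower in RA-21, and 25% and 22.1% in BMP-21. NDRG1 had a mean of 27.2 CPM in RA-21 and 86.6 CPM in BMP-21, against 3.09 CPM in NT2-0, with log2 fold changes of 3.13 ± 0.37 (adjusted p = 0.00022) and 4.80 ± 0.40 (adjusted p = 6.1e-05). EGLN3, an oxygen-sensing hydroxylase, was lower in RA-21 (-1.34 ± 0.42) and higher in BMP-21 (1.57 ± 0.42). Its RA-21 call was lost without NT2-0 replicate 1 (-1.16) or 2 (-1.49) or RA-21 replicate 1 (-1.36) or 2 (-1.34), and its BMP-21 call without NT2-0 replicate 2 (1.41) or BMP-21 replicate 1 (1.37). SLC2A1, a glucose transporter, had a mean of 753 CPM in BMP-21, against 240 CPM in NT2-0 (1.65 ± 0.46), a call lost without NT2-0 replicate 1 (1.74) or 2 (1.56) or BMP-21 replicate 1 (1.58). The median log2 fold change of the list was -0.15 in RA-21 and 0.35 in BMP-21, against 0.10 and 0.04 over all genes.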
